A study of Mus musculus with 12 samples.

Results

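The integrated stress response is a program that cells switch on when amino acids run short, proteins misfold or other stress arises, and 10 of its genes were followed here in mouse eosinophils: Atf4, Ddit3, Trib3, Asns, Chac1, Sesn2, Psat1, Ppp1r15a, Ddit4 and Slc3a2. They are textbook members of that response, but they were picked with earlier results of these data known, so counts and medians over them describe these genes and are not independent support. They were looked up by symbol in a table of 54532 gene rows. The 10 symbols matched 11 rows, because Ddit3 has a second row (ENSMUSG00000116429) that held 0 counts in the 12 libraries. The other 10 rows passed the filter on low counts, as did 14547 rows in all. The cells, SSChigh4get+ splenic eosinophils, had been sorted by side scatter and reporter fluorescence. The mice carried an interleukin-5 transgene, which drives eosinophilia, and the 4get reporter, in which cells that produce interleukin-4 fluoresce (strain IL-5tg_4get/C57BL/6). Control cells carried both alleles as well, so all the cells came from mice with excess interleukin-5. The cells were kept for 4 h with a rat IgG2a isotype control antibody, with 5 µg/mL of anti-Siglec-F antibody (clone E50-2440), with 10 ng/mL of recombinant murine IL-33, or with anti-Siglec-F + IL-33, called the combined group below. Siglec-F is a sialic acid-binding inhibitory receptor of mouse eosinophils, and IL-33 is an alarmin cytokine released by damaged tissue. Each of the 4 groups had 3 libraries. The labels do not say whether the cells given IL-33 alone also received the isotype antibody. Nothing in them tells if replicate libraries stem from different mice or dishes. The p-values therefore speak only of how far these libraries scatter, and that scatter could be technical.

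In the integrated stress response, kinases that sense different kinds of stress phosphorylate the translation factor eIF2. Most protein synthesis then drops, while the Atf4 mRNA, whose short upstream reading frames normally hold its translation back, is translated more. The ATF4 protein in turn drives genes for amino acid supply, for redox balance and for brakes on growth, and one of its targets, Ppp1r15a, encodes a phosphatase cofactor that removes the phosphate from eIF2 and ends the response. RNA sequencing reads mRNA only, so neither eIF2 phosphorylation nor ATF4 protein was measured here.

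Total counts ran from 11686603 to 17137988 per library. In the combined group library 2 had few detected genes (15555) and library 3 many (29990), where the remaining libraries had 19138 to 24485. The share of counts in ribosomal protein genes was 3.45% and 3.99% in that pair and 1.69% to 2.71% elsewhere. Levels are given as CPM, a library's reads of a gene as a TMM-scaled rate. The median SD of log2 CPM between libraries was 0.22 in the isotype group and 0.44 in the combined group. Eosinophil markers were abundant throughout: 10 genes including Epx, Prg2 and Siglecf summed to between 4586 and 14010 CPM, and none of the 10 was called in any comparison. Monocyte and macrophage markers summed to 1540 to 1759 CPM in the isotype group, 2003 to 2282 with the antibody, 2517 to 3474 with IL-33 and 3241 to 4006 in the combined group. Of the 11 markers 4 (Adgre1, Csf1r, Cd14 and Spic) were called higher in each of IL-33 against isotype, the combined group against isotype and the combined group against the antibody. Between isotype and combined group the means went from 1136 to 2405 CPM for Adgre1, 433 to 1021 for Csf1r, 3.84 to 44.1 for Cd14 and 1.06 to 16.3 for Spic. Vcam1, at 22.6 and 88.7 CPM, was not called. Of the other 6, C1qa, C1qb, C1qc and Mertk did not exceed 3.34 CPM in any library, and Cd68 (11.8 and 10.7 CPM) and Lyz2 (47.6 and 35.3 CPM) were not called. Neutrophil markers summed to 976 to 2171 CPM in the isotype group and 865 to 1886 CPM in the combined group. Basophil and mast cell markers summed to 278 to 423 and 505 to 1194 CPM in those groups, with 1 of 9 called, Hdc, whose mean went from 174 to 664 CPM. Gata2 was at 134 and 202 CPM and Kit at 17.9 and 8.19 CPM, and the other 6 did not exceed 4.77 CPM in any library. Whether cells other than eosinophils had a part in the results on the stress genes was not tested, and in bulk RNA fewer cells of a type and less RNA per cell cannot be told apart.

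Per length of transcript, the 10 genes spanned a wide range. Divided by the gene length in kilobases from the authors' table, Atf4 was the most abundant in the isotype group at 151 CPM per kilobase, ahead of Slc3a2 at 104. Ddit4 at 28.0 and Sesn2 at 23.9 followed with overlapping libraries. Ddit3 (13.3), Ppp1r15a (6.94), Trib3 (4.23) and Psat1 (2.38) came next, each separate from its neighbours in that order. Asns (0.742) and Chac1 (0.512) were the lowest and overlapped. In the combined group Slc3a2 stood first at 309 CPM per kilobase, with libraries that overlapped those of Atf4 at 258. Chac1 rested on 155 counts over the 12 libraries and Asns on 530, while Slc3a2 had 107605, so values for the rarest genes carry the most counting error.

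The promoters of these genes are shown because ATF4 acts there, joined with C/EBP proteins, on an element whose core is written TGATGNAA. RefSeq promoter sequence (GRCm38.p6) was found for all 10 genes, with a second promoter for Psat1, and the 250 bases before each start were searched on both strands. The core was present in 2 of the 10 genes, Asns and Chac1, against 3.45% of the 32851 promoters in the table. A pair of related words was looked up only after these promoters had been read. TGGTGCAA, which differs from the core near its start, lay before Trib3 and Psat1 and in 0.463% of all promoters. TGACGTCA, the cAMP response element, lay before Ppp1r15a and in 1.55%. The stretches around the matches are written 5′ to 3′ on the strand of the gene, with the matching bases in capitals and positions counted from the RefSeq start. The Asns stretch lies within the span of the gene in the authors' table, and all its 30 bases are exonic in the GENCODE annotation. The Psat1 stretch also lies within the gene's span there.
Asns (chr6:7693214-7693243, minus strand, 23 to 16 bases before the start): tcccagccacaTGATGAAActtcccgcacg
Chac1 (chr2:119351019-119351086, plus strand, 193 to 186 bases before the start, core on the opposite strand): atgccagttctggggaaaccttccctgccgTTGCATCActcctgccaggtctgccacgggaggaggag
Trib3 (chr2:152344061-152344123, minus strand, 33 to 26 bases before the start): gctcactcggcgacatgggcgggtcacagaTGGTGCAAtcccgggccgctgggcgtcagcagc
Psat1 (chr19:15925158-15925225, minus strand, 136 to 129 bases before the start): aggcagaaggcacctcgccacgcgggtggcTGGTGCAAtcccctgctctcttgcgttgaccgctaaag
Ppp1r15a (chr7:45526269-45526310, minus strand, 12 to 5 bases before the start): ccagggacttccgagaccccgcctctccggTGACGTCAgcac
A match describes the letters and is no evidence of binding. The windows of Atf4, Ddit3, Sesn2, Ddit4 and Slc3a2 held none of these 3 words, from which nothing follows about the factors.

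Atf4 (ENSMUSG00000042406, mm10 chromosome 15, 80255184 to 80257541) encodes the activator at the centre of the response. Its level was 336, 400 and 328 CPM in the isotype libraries, 360, 320 and 411 with anti-Siglec-F, 446, 475 and 288 with IL-33, and 501, 563 and 763 in the combined group. The combined libraries lay above the 9 others, and the third IL-33 library was the lowest of the 12. Between the isotype and the combined group Atf4 rose from 355 ± 39.3 to 609 ± 137 CPM (SD, n = 3), a 1.72-fold change (log2 fold change 0.78, SE 0.21, edgeR quasi-likelihood adjusted p = 0.0348).

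Ddit3 (ENSMUSG00000025408, chromosome 10, 127290774 to 127296288) encodes CHOP, a factor linked to cell death when stress is not resolved. Isotype libraries gave 22.6, 23.0 and 23.0 CPM and anti-Siglec-F libraries 22.5, 21.8 and 26.0. IL-33 libraries gave 22.1, 27.0 and 10.5, and combined libraries 24.5, 29.5 and 34.8. The combined libraries lay just above the isotype libraries without overlap, but the difference, 0.37 on the log2 scale (SE 0.26, 95% interval -0.19 to 0.94), was not called (edgeR adjusted p = 0.394).

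Trib3 (ENSMUSG00000032715, chromosome 2, 152337422 to 152344032) encodes a pseudokinase that is induced by ATF4 and CHOP and restrains them. It lay between 7.45 and 11.7 CPM in the isotype group and between 10.0 and 15.1 CPM in the combined group. The groups overlapped, and the difference of 0.42 (SE 0.34) on the log2 scale was not called (edgeR adjusted p = 0.466). With IL-33 alone 2 of 3 libraries, at 5.16 and 5.59 CPM, were below the isotype range.

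**Figure D1:**
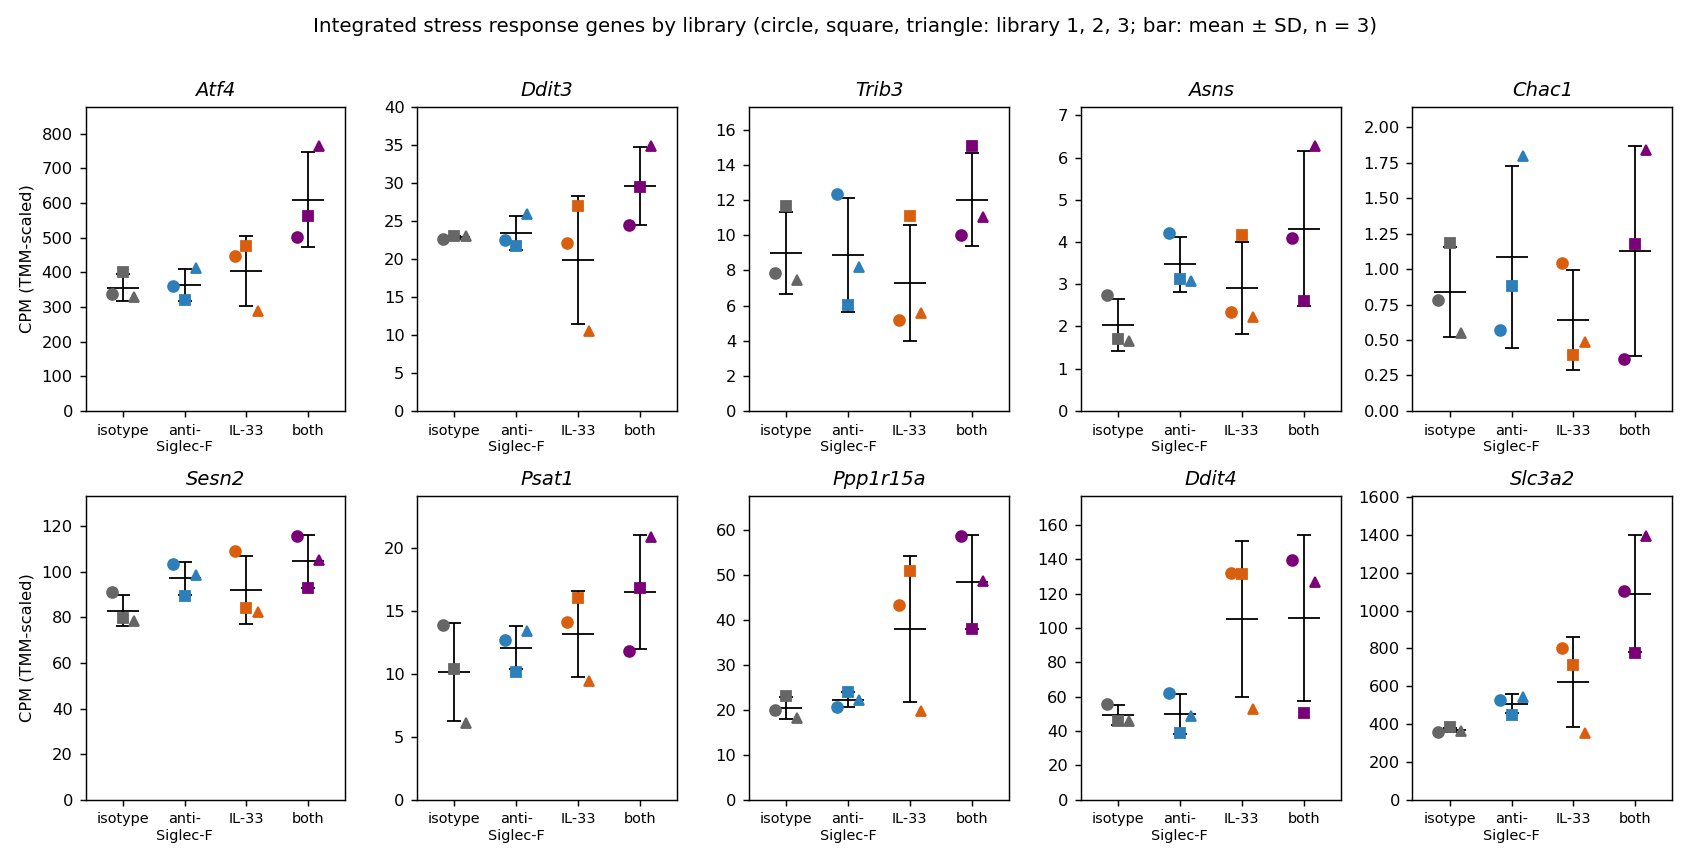
TMM-scaled CPM (linear axes starting at 0) of the 10 stress response genes in the isotype, anti-Siglec-F, IL-33 and combined (both) groups; circles, squares and triangles are libraries 1, 2 and 3, and bars give the mean ± SD (n = 3). Atf4, Ddit3, Sesn2, Ppp1r15a and Slc3a2 lie higher in all 3 combined libraries than in any isotype library, and the third IL-33 library lies below the other IL-33 libraries for Atf4, Ddit3, Ppp1r15a, Ddit4 and Slc3a2.

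Among the 3 of the 10 genes that serve amino acid supply, Slc3a2, Asns and Psat1, only Slc3a2 was called. Slc3a2 (ENSMUSG00000010095, chromosome 19, 8706882 to 8723369) encodes the heavy chain that carries light chains such as those of the cystine and large neutral amino acid transporters to the cell surface. Its isotype libraries stood at 359, 382 and 365 CPM and its anti-Siglec-F libraries at 529, 449 and 546. The IL-33 libraries stood at 805, 710 and 351, and the combined libraries at 1102, 776 and 1392. The antibody libraries all exceeded the isotype libraries, as did the combined ones, while the IL-33 group held 2 high libraries and 1 below the isotype range. Slc3a2 rose 2.96-fold in the combined group, from 369 ± 11.9 to 1090 ± 308 CPM (log2 fold change 1.56, SE 0.27, edgeR adjusted p = 0.00336). The rise was called again when each of the 6 libraries of the comparison was left out, with adjusted p at most 0.0223.

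Asns (ENSMUSG00000029752, chromosome 6, 7675169 to 7693254), which encodes asparagine synthetase, was at 2.74, 1.70 and 1.65 CPM in the isotype libraries. It was at 4.22, 3.13 and 3.07 with anti-Siglec-F, at 2.35, 4.17 and 2.23 with IL-33, and at 4.09, 2.61 and 6.27 with both. The antibody libraries were the ones that did not overlap the isotype libraries. No comparison of Asns was called; the largest difference, 1.09 (SE 0.40) on the log2 scale for the combined group against isotype, had an edgeR adjusted p of 0.106, and DESeq2 gave 0.0494. Psat1 (ENSMUSG00000024640, chromosome 19, 15904678 to 15947337), an enzyme of serine synthesis, averaged 10.1 ± 3.90 CPM in the isotype group and 16.5 ± 4.51 CPM in the combined group. Its libraries overlapped (6.11 to 13.9 against 11.8 to 20.8 CPM), and the difference of 0.70 (SE 0.30) was not called (edgeR adjusted p = 0.162).

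The gene that ends the response was also higher. Ppp1r15a (ENSMUSG00000040435, chromosome 7, 45522916 to 45526268) encodes GADD34, the cofactor that directs protein phosphatase to eIF2. It stood at 20.0, 23.0 and 18.1 CPM in the isotype libraries and at 20.6, 23.9 and 22.2 with anti-Siglec-F. It stood at 43.2, 50.8 and 19.6 with IL-33 and at 58.7, 37.9 and 48.6 in the combined group. The combined libraries and 2 of 3 IL-33 libraries lay above every library without IL-33, and the third IL-33 library lay among them. From isotype to combined group Ppp1r15a rose 2.37-fold, from 20.4 ± 2.49 to 48.4 ± 10.4 CPM (log2 fold change 1.25, SE 0.28, edgeR adjusted p = 0.0142).

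Both brakes on the growth kinase complex mTORC1 gave other patterns. Ddit4 (ENSMUSG00000020108, chromosome 10, 59949669 to 59951834), which encodes REDD1, was at 56.1, 45.9 and 45.7 CPM in the isotype libraries and at 62.2, 39.0 and 48.7 with anti-Siglec-F. With IL-33 it was at 132, 131 and 52.9, and in the combined group at 140, 50.6 and 127. Thus 4 of the 6 libraries with IL-33 were at 127 to 140 CPM and the other 2, the third of IL-33 and the second of the combined group, sat within the isotype range. Neither difference from isotype was called: 1.10 (SE 0.37) with IL-33 and 1.11 (SE 0.37) in the combined group on the log2 scale, with edgeR adjusted p of 0.164 and 0.0731. Sesn2 (ENSMUSG00000028893, chromosome 4, 132492032 to 132510501), a leucine sensor, differed little between groups. It averaged 83.0 ± 6.93 CPM in the isotype group, 97.2 ± 7.19 with the antibody, 91.9 ± 14.9 with IL-33 and 105 ± 11.5 in the combined group, whose libraries lay above the isotype libraries by a narrow margin (92.9 to 116 against 78.5 to 91.0 CPM). Its largest difference was 0.33 (SE 0.15) on the log2 scale and was not called (edgeR adjusted p = 0.176).

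Chac1 (ENSMUSG00000027313, chromosome 2, 119351229 to 119354381) encodes an enzyme that breaks down glutathione and is a sensitive ATF4 target in many cells. Here it was near the floor, between 0.37 and 1.84 CPM over the 12 libraries and with 5 to 27 counts in each. The combined libraries gave 0.37, 1.18 and 1.84 CPM and the isotype libraries 0.78, 1.18 and 0.55. No difference was detectable at this depth: the 95% interval of the log2 fold change was -1.04 to 1.89.

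The combined group against isotype asked what both stimuli changed together. Of the 10 genes, 3 were called and all 3 rose: Slc3a2, Ppp1r15a and Atf4. Among all genes tested, 9.88% were called in this comparison, 5.47% as higher and 4.41% as lower. The log2 fold change was above 0 for all 10 genes, against 46.6% of all genes, and the median was 0.74 against -0.05 over all genes tested. The libraries of both groups did not overlap for 5 of the 10 genes (Atf4, Ddit3, Sesn2, Ppp1r15a and Slc3a2, all higher), against 12% of all genes. DESeq2 called 5 of the 10, adding Asns and Ddit4 (adjusted p = 0.0209). It also called more of all genes than edgeR, 2360 of those tested, so the edgeR shares are no background for this count. Atf4 was no longer called without any 1 isotype library (adjusted p 0.124, 0.056 and 0.133 without libraries 1, 2 and 3), without combined library 3 (0.120), without combined libraries 2 and 3 together (0.291) or when only these 2 groups were fitted (0.0512). Ppp1r15a was not called without isotype library 1 (0.0643) or 3 (0.0707), and Ddit4 was called without combined library 2 (log2 fold change 1.43, adjusted p = 0.0153) or without libraries 2 and 3 (1.56, 0.0348).

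**Figure D2:**
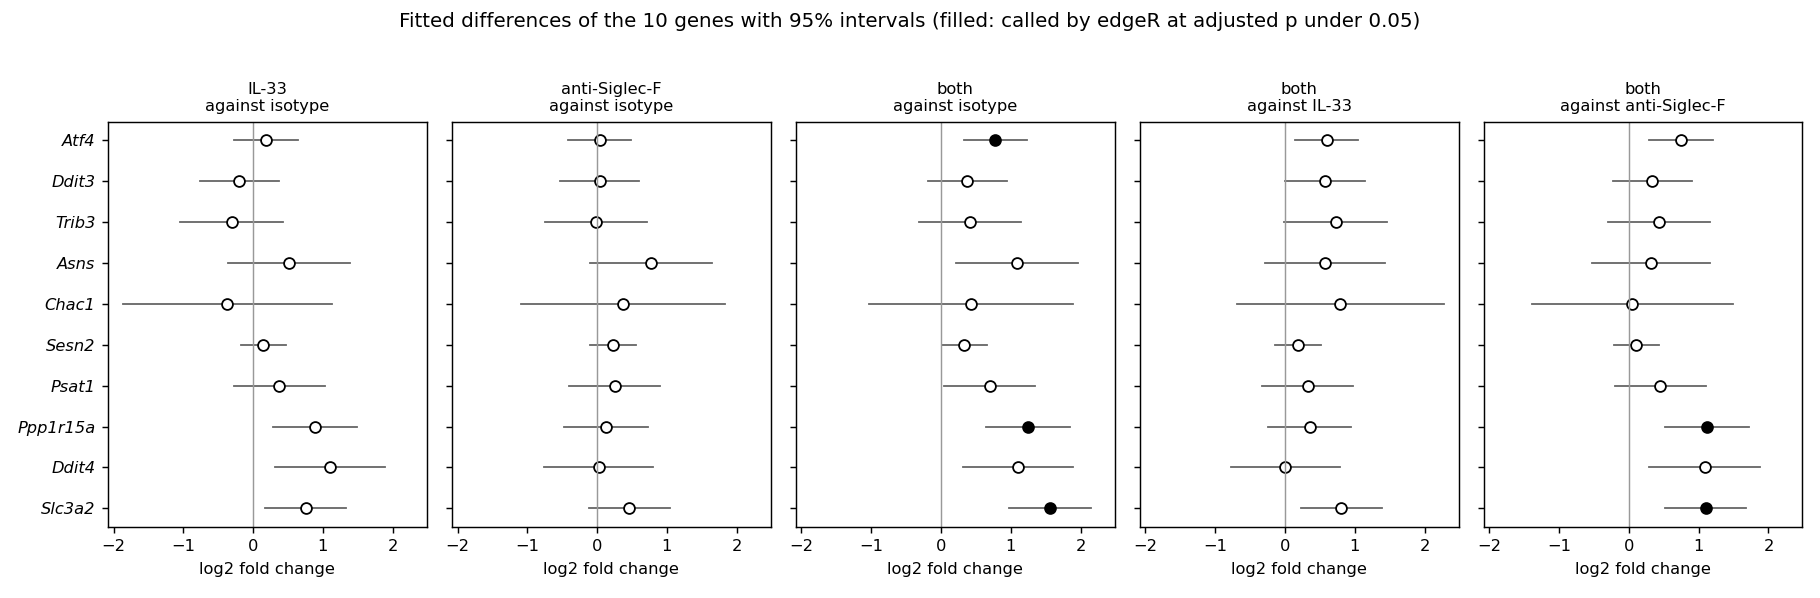
Log2 fold change of the 10 genes in the 5 comparisons between groups with its 95% interval, from edgeR; filled points were called at an adjusted p under 0.05. Slc3a2, Ppp1r15a and Atf4 are filled for the combined group against isotype, Slc3a2 and Ppp1r15a for the combined group against the antibody, and none elsewhere.

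The effect of the cytokine alone was read from IL-33 against isotype. None of the 10 genes was called by edgeR, where 2.21% of all genes tested were; 3 had an unadjusted p under 0.05, against 13.6% of all genes, and DESeq2 called 2 of 9 (Chac1 had no adjusted p), Ppp1r15a and Ddit4 (adjusted p 0.036 and 0.0402). These 3 were Ddit4, Ppp1r15a at 0.89 (SE 0.28, adjusted p = 0.134) and Slc3a2 at 0.75 (SE 0.27, adjusted p = 0.197) on the log2 scale. Atf4 (0.18), Ddit3 (-0.20), Trib3 (-0.31) and Chac1 (-0.37) had intervals that spanned 0. The log2 fold change was above 0 for 7 of the 10 genes, against 48.5% of all genes, and the median was 0.28, against -0.01. DESeq2 called more of all genes here than edgeR, 817 of those tested, so the 2.21% is no background for its 2 calls.

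The third IL-33 library bore heavily on this comparison. In it, 0 of the 10 genes exceeded all isotype libraries and 5 lay below all of them, whereas in libraries 1 and 2 there were 6 and 7 above. Over all genes tested 30.8% in that library lay above the isotype libraries, close to 28.2% and 32.5% in libraries 1 and 2. The share of all genes below the isotype libraries was 32.9% in that library and 35.6% and 32.5% in libraries 1 and 2. Without the third IL-33 library Ppp1r15a (1.24, edgeR adjusted p = 0.00301), Slc3a2 (1.08, 0.0141) and Ddit4 (1.46, 0.0277) were called higher. Of all genes 488 were called in that fit, against 322 with all libraries. The library was singled out for its low values of these genes, so these calls are no independent support. In that library the neutrophil gene S100a8 was at 5.66 CPM, against 33.4 and 44.5 CPM in IL-33 libraries 1 and 2. Adgre1 was at 2020 CPM, between their 1590 and 2283. The part that cell composition has in this was not tested. The labels do not state pairs. The deviations of equally numbered libraries from their group means correlated in these groups, so the numbers were taken as pairs. With that pairing as a block and only these groups fitted, Ddit4 (1.02, adjusted p = 0.0202) and Ppp1r15a (0.83, 0.0336) were called but Slc3a2 (0.69, 0.0824) was not. This fit was chosen after seeing the data, and the same block in the fit of 12 libraries called 0 of the 10.

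**Figure D3:**
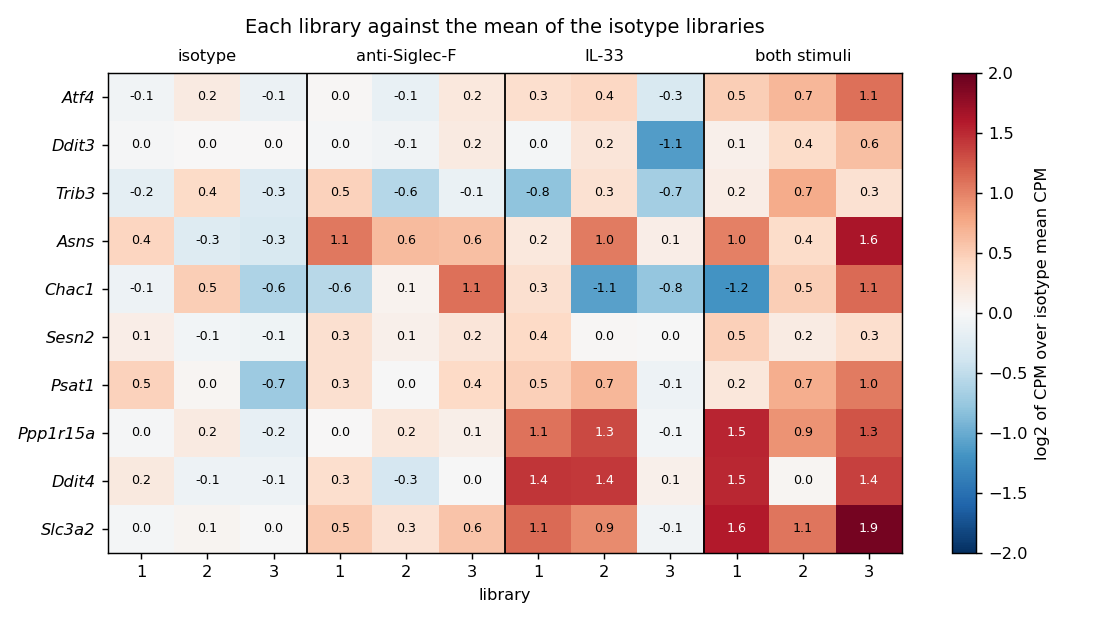
Heat map with genes in the vertical and libraries in the horizontal direction; colour and printed value give the log2 ratio of the CPM of each gene in each of the 12 libraries to the mean of the 3 isotype libraries. The third IL-33 library has no gene above all isotype libraries, and combined library 3 has 9 of 10. Over all genes tested the shares above are 30.8% and 37.3%.

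The effect of the antibody alone was read from anti-Siglec-F against isotype. None of the 10 genes was called and none had an unadjusted p under 0.05 by edgeR, and DESeq2 called 0 of the 9 to which it gave an adjusted p (not Chac1). Over all genes edgeR called 0 of those tested (0%), although 2.54% had an unadjusted p under 0.05. Asns (0.77, SE 0.41) and Slc3a2 (0.46, SE 0.27) had antibody libraries that all lay above the isotype libraries, 2 of 10 genes against 6.73% of all genes. Values above 0 were found for 9 of the 10, against 48.8% of all genes, and the median was 0.18. The intervals of the log2 fold change ran from -0.11 to 1.04 for Slc3a2, from -0.42 to 0.49 for Atf4 and from -0.48 to 0.73 for Ppp1r15a, and differences within them were not detectable here.

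The combined group against the antibody alone asked what IL-33 added. Slc3a2 rose 2.15-fold (log2 fold change 1.10, SE 0.27, edgeR adjusted p = 0.0383) and Ppp1r15a rose 2.17-fold (1.12, SE 0.28, adjusted p = 0.0398). These were 2 of 10 genes, where 4.42% of all genes were called and 2.7% as higher. Atf4 had libraries that did not overlap and a log2 fold change of 0.74 (SE 0.21) but was not called (adjusted p = 0.0647). With Slc3a2 and Ppp1r15a it made 3 of 10 genes without overlap, against 10% of all genes, and 10 of 10 log2 fold changes were above 0, against 47.1%. Both calls were near the threshold: each was lost when any 1 antibody library or combined library 3 was left out, and without combined libraries 2 and 3 Ppp1r15a had an adjusted p of 0.0644 and Slc3a2 one of 0.128. DESeq2 called 4 of 9 (Chac1 had no adjusted p), with Atf4 (0.00961) and Ddit4 (0.0325) added. Here too DESeq2 called more of all genes than edgeR, 1599 of those tested, so the edgeR shares are no background for this count.

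Adding the antibody to IL-33 was read from the combined group against IL-33. There edgeR called 0 of the 10 genes and 0% of all genes, DESeq2 called 0 of the 8 to which it gave an adjusted p (not Asns or Chac1), and 3 of the 10 had an unadjusted p under 0.05, against 17.4% of all genes. Slc3a2 differed by 0.81 (SE 0.27, adjusted p = 0.201) and Atf4 by 0.60 (SE 0.21, adjusted p = 0.211) on the log2 scale. Atf4 was the 1 gene of 10 whose libraries did not overlap, against 6.98% of all genes. It was called without combined library 1 (edgeR adjusted p = 0.0470), in a fit that called 2116 genes in all, against 0 with all libraries. All 10 log2 fold changes were above 0, against 47.4% of all genes, with a median of 0.57. Ddit4 differed by 0.01, with an interval from -0.77 to 0.78. Among fits that left out 1 library, that without the third IL-33 library gave the lowest values for Atf4 (0.38), Slc3a2 (0.51) and Ddit3 (0.25). It also did so for Psat1 (0.11), Ppp1r15a (0.02) and Ddit4 (-0.33). Trib3, Asns, Chac1 and Sesn2 were lowest in other fits and stayed above 0 in each. This comparison, the preceding one and that with isotype share the combined libraries, so their values are not independent.

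The interaction subtracts the log2 change that the antibody gave by itself from the change it gave on top of IL-33. It asked whether both stimuli together did more than the sum of each. None of the 10 genes was called by edgeR or DESeq2 and 0 had an unadjusted p under 0.05, where 0% and 7.91% of all genes passed by edgeR. Estimates for Atf4 (0.56, 95% interval -0.08 to 1.20, edgeR adjusted p = 0.583), Trib3 (0.74, -0.30 to 1.78) and Ddit3 (0.54, -0.26 to 1.34) were the largest. Those for Slc3a2 (0.35, -0.47 to 1.16) and Ppp1r15a (0.23, -0.61 to 1.07) were smaller, and each interval held values on both sides of 0. Of the 10 estimates 7 were above 0, against 48% of all genes.

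Across the 12 libraries the genes did not all move together. Log2 CPM correlated most between Atf4 and Slc3a2 (Pearson r = 0.91), Ppp1r15a and Slc3a2 (0.90) and Ppp1r15a and Ddit4 (0.86), and least between Chac1 and Ddit4 (-0.16). The 12 points share their group differences and, for low genes, their counting noise. Likeness was ranked over 9178 genes whose mean reached 5 CPM, and those most like Atf4 were Csnk2b, Card19 and Psmb5, each at r = 0.99. For Slc3a2 they were Sdcbp and Por (0.98 each) and for Ddit4 Bcl2l11 (0.95). For Ppp1r15a the closest named gene was Tgif1 (0.96) and for Sesn2 Fmnl2 (0.96). For Psat1 the closest was Rgs10 (0.87), followed by Mthfd2 (0.87), an enzyme of folate metabolism. The gene most like Ddit3 was S100a8 (0.93), which is expressed by neutrophils. Its level was 5.66 CPM in the third IL-33 library and 83.3 CPM in combined library 3, where Ddit3 was lowest and highest. The neutrophil genes Ngp and Retnlg were also lowest in the third IL-33 library (130 and 195 CPM). Among the 10 listed neutrophil markers, S100a9 and Camp were lowest there too. Ltf, Ly6g, Mpo, Elane and Cxcr2 had their lowest values in other libraries. Ngp and Retnlg did not peak in combined library 3. Ngp was at 797 CPM there and at 986 in anti-Siglec-F library 1, and Retnlg at 572 there and at 911 in isotype library 2. Whether neutrophils had a part in this was not tested.

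Other genes of the response were read from 9 lists of 98 genes, of which 91 were tested. In the combined group against isotype 22 of the 91 were called, against 9.88% of all genes (5.47% higher and 4.41% lower), shares that also stand behind the counts of each list below. Of the 14 genes of eIF2, its kinases, its exchange factor and its phosphatase, 2 rose and 1 fell, with a list median of 0.17. Eif2s1, the subunit that the kinases phosphorylate, was at 59.7, 55.0 and 64.1 CPM in the isotype libraries and at 86.3, 104 and 113 CPM in the combined libraries, which lay clearly above. It rose by 0.77 on the log2 scale (SE 0.14, edgeR adjusted p = 0.0045), and its partner Eif2s2 rose by 0.61 (adjusted p = 0.0156). Eif2ak3, which encodes the endoplasmic reticulum stress kinase PERK, fell from 63.8 ± 3.47 to 41.3 ± 7.18 CPM (-0.63, SE 0.17, adjusted p = 0.0307). Leaving out 1 library ended the call for Eif2s2 in 2 of 6 cases (isotype 1 or 3) and for Eif2ak3 in 5 of 6 (all but combined library 1), and without combined libraries 2 and 3 none of this list was called.

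Of 8 partner and stress transcription factors, 3 rose and none fell, with a median of 0.33. Atf3, a repressor and activator induced by ATF4, was at 4.24, 3.62 and 2.82 CPM in the isotype libraries, at 20.2, 19.1 and 5.17 with IL-33 and at 23.2, 10.0 and 23.6 in the combined group. The third IL-33 library was again the lowest of the libraries with IL-33. Atf3 rose by 2.41 (SE 0.46, edgeR adjusted p = 0.00573) in the combined group and by 2.05 (SE 0.46, adjusted p = 0.032) with IL-33. The dimer partner Cebpb rose from 503 ± 116 to 1263 ± 365 CPM in the combined group (1.33, adjusted p = 0.0122), and Jdp2 rose by 0.83 (adjusted p = 0.0237). The combined-group call of Atf3 was made in 6 of 6 fits that left out a library. That of Cebpb ended without isotype library 1 or 3, and that of Jdp2 without any 1 isotype library or combined library 3. With IL-33 alone the Atf3 call held only without IL-33 library 3.

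Of 8 amino acid transporters tested, 1 rose, with a list median of 0.15. That gene was Slc7a11, the cystine and glutamate exchanger that pairs with the Slc3a2 product. It stood at 490, 353 and 285 CPM in the isotype libraries and at 999.5, 977 and 590 with anti-Siglec-F. With IL-33 it stood at 2348, 1873 and 722 and in the combined group at 3739, 1225 and 1836. Every stimulated library exceeded every isotype library. Slc7a11 rose by 2.59 in the combined group (SE 0.46, edgeR adjusted p = 0.00337), a call made in 6 of 6 fits that left out a library, and by 2.13 with IL-33 (SE 0.45, adjusted p = 0.0241), a call made only without IL-33 library 3. Slc7a5, another light chain of Slc3a2 and named here after its values were seen, averaged 14.1 ± 2.95 CPM in the isotype group and 20.1 ± 1.56 CPM in the combined group and was not called (0.51, edgeR adjusted p = 0.234).

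Enzymes that make amino acids and load them on tRNA showed few calls. Of 8 tested genes of serine, folate and proline metabolism 0 were called by edgeR or DESeq2 in the combined group against isotype, and 3 had an unadjusted p under 0.05. Phgdh, which starts serine synthesis, averaged 10.1 ± 3.76 and 17.1 ± 2.80 CPM (0.76, edgeR adjusted p = 0.104). Gpt2 differed by 1.32 (adjusted p = 0.116). Of 12 aminoacyl-tRNA synthetases 0 were called higher and 1, Wars, fell, from 70.9 ± 5.04 to 46.6 ± 1.02 CPM (-0.61, edgeR adjusted p = 0.013). Its call was lost without isotype library 2 or 3. Their medians, 0.19 and 0.06, lay near that of all genes, -0.05.

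Of 10 tested genes listed as induced by ATF4 or CHOP, 2 rose and 2 fell, with a median of 0.43. Ero1l, an oxidase that forms disulfide bonds in the endoplasmic reticulum, was at 240, 160 and 166 CPM in the isotype libraries, at 930, 419 and 418 with IL-33 and at 1481, 574 and 1405 in the combined group. All 6 libraries with IL-33 lay above the isotype libraries. Ero1l rose by 2.61 in the combined group (SE 0.38, edgeR adjusted p = 0.00109) and by 1.64 with IL-33 (SE 0.37, adjusted p = 0.0327), and the former call was made in 6 of 6 fits that left out a library, the latter in 2. Herpud1, which aids degradation of misfolded proteins, rose from 248 ± 21.0 to 447 ± 67.5 CPM (0.85, adjusted p = 0.0166). Sesn1, a relative of Sesn2 that responds to p53, fell from 45.7 ± 4.07 to 25.4 ± 3.68 CPM (-0.85, adjusted p = 0.0106). Bbc3, the death factor PUMA, fell by 0.69 on the log2 scale (adjusted p = 0.0416). Calls were lost without some single library: isotype 1 or 3 for Sesn1, these or combined library 3 for Herpud1, and any but combined library 3 for Bbc3.

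The other arms of the unfolded protein response showed no called gene: 0 of 16 ATF6 and XBP1 genes by edgeR, 2 by DESeq2 and 4 at an unadjusted p under 0.05, with a median of 0.10. The chaperone genes Hyou1 (0.40, edgeR adjusted p = 0.0546) and Hspa5 (0.54, adjusted p = 0.065) were closest to the threshold. Hspa5, which encodes BiP, averaged 164 ± 8.02 CPM in the isotype group and 239 ± 44.1 CPM in the combined group.

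Ddit4 is also known as a gene induced by hypoxia signalling and by glucocorticoids, so genes of both were read. Of 9 tested hypoxia-inducible genes 5 rose and 2 fell in the combined group, with a median of 1.12. Egln3, an oxygen sensor, was at 23.4, 29.7 and 28.2 CPM in the isotype libraries and at 141, 86.6 and 194 in the combined group, well above. It rose by 2.38 (SE 0.26, edgeR adjusted p = 0.000163), and Ankrd37 rose by 2.14 (adjusted p = 0.0232), while Ndrg1 fell by 1.97 on the log2 scale (adjusted p = 0.0017). When only these groups were fitted 2 of the 9 were called, 1 in each direction, and Ankrd37 was lost without any 1 isotype library or combined library 3. Of 6 glucocorticoid-induced genes 0 rose and 3 fell, with a median of -0.97. Sgk1 fell from 77.6 ± 4.26 to 31.9 ± 7.79 CPM (-1.28, SE 0.22, adjusted p = 0.00263), and Tsc22d3 and Zbtb16 fell by 1.23 and 1.32 on the log2 scale. With only these groups fitted 1 of the 3 was called, and single libraries ended the calls of Tsc22d3 (isotype 2 or 3, combined 3) and Zbtb16 (isotype 1 or 3, combined 2 or 3).

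**Figure D4:**
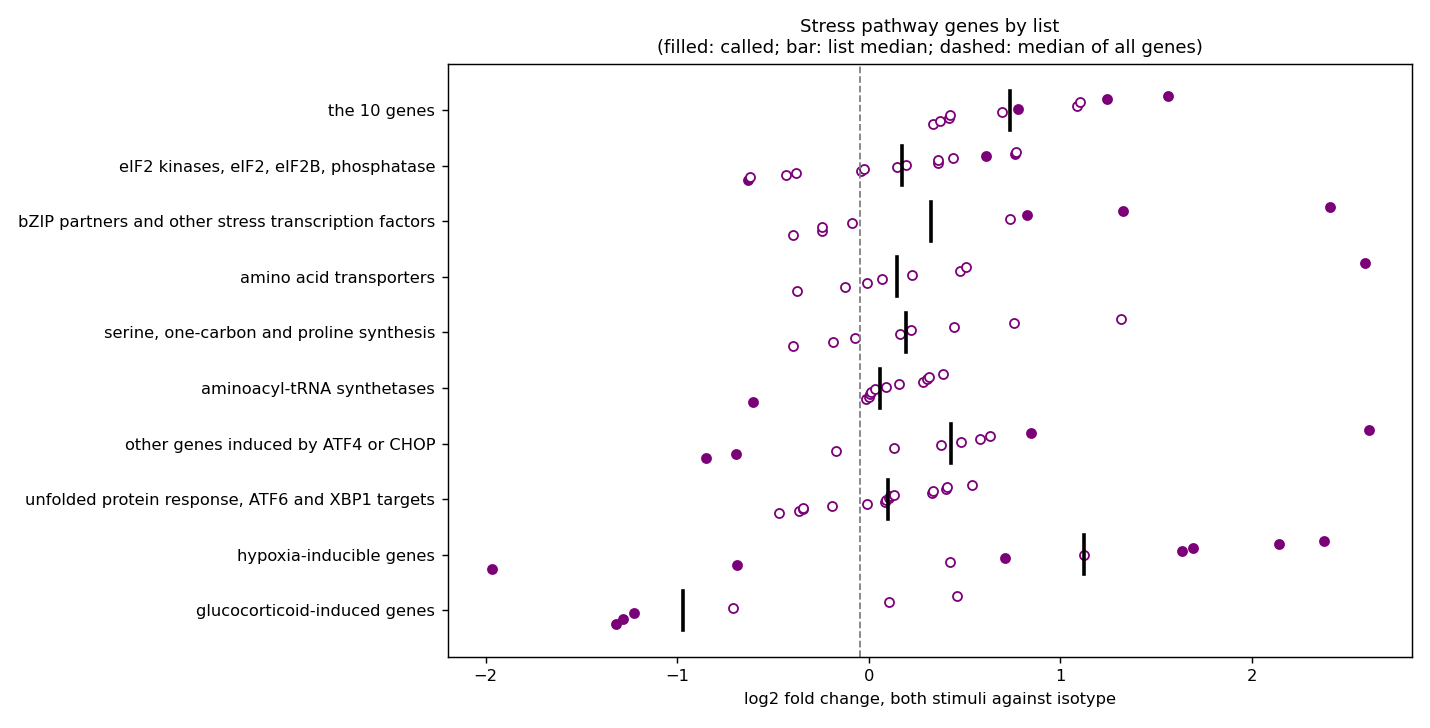
Log2 fold change, combined group against isotype, of the 10 genes and of each tested gene in the 9 lists; filled points were called by edgeR, bars are list medians and the dashed line is the median of all genes tested. Slc7a11, Ero1l, Atf3, Egln3 and Ankrd37 lie above 2, while the tRNA synthetases and the ATF6 and XBP1 genes centre near 0.

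In the remaining comparisons fewer genes of the lists were called. With IL-33 against isotype 7 of 91 were, against 2.21% of all genes: Slc7a11, Atf3, Ero1l and Egln3 (1.21) rose, and Wars (-0.58), Sgk1 (-1.33) and Ndrg1 (-1.24) fell. Of these calls that of Sgk1 was made in 6 of 6 fits without 1 library and that of Ndrg1 in 0 of 6. Those of Wars (1 of 6, without IL-33 library 3), Egln3 (2 of 6, without IL-33 library 2 or 3) and Ero1l (2 of 6, likewise) were lost without any other library. With the combined group against the antibody 13 of 91 were called, against 4.42% of all genes, among them Cebpb (1.51), Atf3 (1.66), Ero1l (1.85), Herpud1 (0.89) and Egln3 (1.81), which rose, and Eif2ak3 (-0.70), Sesn1 (-0.71), Sgk1 (-0.97) and Aldh18a1 (-0.78), which fell. Of these the call of Egln3 was made in 6 of 6 fits without 1 library and the others in 1 or 2. For the antibody against isotype, the combined group against IL-33 and the interaction edgeR called 0 of 91. There 7, 18 and 11 of the 91 had an unadjusted p under 0.05, against 2.54%, 17.4% and 7.91% of all genes, and DESeq2 called 0 of 86, 7 of 84 and 0 of 91 with an adjusted p. For the combined group against IL-33 DESeq2 also called genes outside these lists, where edgeR called none.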

How the data were processed

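The 12 libraries of cultured eosinophils were made with a NEBNext Ultra RNA kit by a sequencing service, per the labels' protocols. The authors deposited raw counts per gene, the unit analysed here, and a table of normalized counts that was not used. Per the submitters' processing notes the tools were featureCounts 1.5.0-p3, FastQC 0.11.8, STAR 2.6.1d, DESeq2 and fastp, on build mm10. For the annotation release and the strand setting the sources used here give nothing, so reads of overlapping or antisense genes cannot be told apart. Columns were matched to samples by the short names in the labels.

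Counts were scaled by TMM, filtered with filterByExpr by group and tested in edgeR 4.0.16 (R 4.3.3) by glmQLFTest, its quasi-likelihood test. All 12 libraries entered 1 fit with no block. Each of the 6 comparisons was adjusted by Benjamini-Hochberg over the 14547 genes tested, and a gene was called where that p was under 0.05. A standard error was taken from the log2 fold change and its F statistic. The members and gene lists were chosen with earlier results of these data known. From each list up to 3 called genes with the largest change were named in a comparison, or up to 2 with the smallest p where none was called. Likeness used log2(CPM + 0.5).

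Alternatives were DESeq2 1.42.0, its size factors, no filter, only the groups compared, a replicate block, each library left out, and combined libraries 2 and 3 left out. Equal numbers were taken to pair libraries where the deviations from group means correlated above 0.1 for each number. That held for IL-33 against isotype (0.24, 0.24 and 0.17) and for no other comparison. The block in a fit of only those groups was added after seeing the data. The tests were tried on simulated data. No pair of libraries of a group agreed within sampling noise.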

Additional observations from a re-analysis of the deposited data

How the results depend on the processing

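Of the log2 fold changes of the 10 genes in the 6 comparisons, 308 values under other settings kept their direction and their side of the threshold, 16 were newly called, 4 lost a call and 12 changed sign. With 1 library left out these numbers were 363, 8, 14 and 35. Size factors in place of TMM shifted the median of all genes by at most 0.04.

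With no expression filter edgeR called 3 of the 10 genes and 683 genes in all for IL-33 against isotype, 70 genes for the antibody against isotype, 1 and 786 for the combined group against IL-33, 4 and 1600 for the combined group against the antibody, and 86 genes for the interaction. There Ddit4 was at -0.0101 against IL-33 and Chac1 at -0.0075 against the antibody. DESeq2 called 2 and 817 for IL-33, 11 genes for the antibody, 5 and 2360 for the combined group against isotype, 470 genes against IL-33, 4 and 1599 against the antibody, and 3 for the interaction; its adjusted p was missing for 4 to 5362 genes a comparison. Fitting only the groups compared gave 20 genes for the antibody, 738 for the combined group against isotype and 242 against the antibody. Without combined libraries 2 and 3 the combined group gave 651 genes against isotype and 0 of the 10 and 220 genes against the antibody. Chac1 was then at -1.13 against isotype, -0.78 against IL-33, -1.51 against the antibody and -1.16 in the interaction. Psat1 was at -0.12 against IL-33 and -0.37 in the interaction, with Sesn2 at 0.14 and Ddit4 at 0.42 there. The cause was not tested; fewer libraries entered this fit.

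The replicate block in the fit of 12 libraries called 364, 0, 1459, 0, 642 and 0 genes in the 6 comparisons and changed no call of the 10 genes. It moved Trib3 to 0.0468 for the antibody against isotype and Ddit4 to -0.0229 against IL-33. For IL-33 against isotype the block with only those groups, chosen after seeing the data, called 2 of the 10 and 1235 genes.

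Leaving out each library gave 0 to 3 of the 10 genes and 116 to 488 genes for IL-33 against isotype, 0 to 0 and 0 to 0 for the antibody, 1 to 5 and 515 to 2916 for the combined group against isotype, 0 to 1 and 0 to 2116 against IL-33, 0 to 3 and 124 to 2839 against the antibody, and 0 to 0 and 0 to 4 for the interaction. Signs varied for Ddit3 with IL-33 (-0.45 to 0.14). With the antibody they varied for Atf4 (-0.052 to 0.13), Ddit3 (-0.0358 to 0.0957), Trib3 (-0.32 to 0.22), Chac1 (-0.20 to 0.70) and Ddit4 (-0.16 to 0.18). In the combined group they varied for Chac1 against isotype (-0.14 to 0.83), Ddit4 against IL-33 (-0.33 to 0.34), and Asns (-0.0537 to 0.57) and Chac1 (-0.52 to 0.64) against the antibody. In the interaction they varied for Asns (-0.57 to 0.14), Chac1 (-0.15 to 0.98), Sesn2 (-0.14 to 0.0932), Psat1 (-0.25 to 0.31), Ppp1r15a (-0.11 to 0.48) and Ddit4 (-0.36 to 0.32). Chac1 and Asns had the fewest counts, which limits what their values can show.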

Other observations

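A ratio that belongs to no comparison above was read after the values were seen. Per length, Ddit3 stood at 0.079 to 0.0963 of the Atf4 level in the 6 libraries without IL-33 and at 0.0504 to 0.0782 in the 6 with IL-33. The lowest value was that of the third IL-33 library. The groups of libraries with and without IL-33 did not overlap, and no test was made of a ratio picked in this way.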
